A study of Mus musculus with 35 samples.

Results

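A set of 8 genes that hepatocytes use to make secreted plasma proteins was followed through tumor cells sorted from 3 organs. The genes were *Alb*, *Apoa1*, *Apoa2*, *Ttr*, *Fgb*, *Fga*, *Ahsg* and *Serpinc1*, taken by name as 8 of the 53465 genes of the deposited count table, in which each name had 1 row. RNA-seq counts were available for 35 libraries of mKate2-positive cells, 10 from primary tumors in the pancreas, 11 from liver metastases and 14 from lung metastases. The tumor cells were KC-shSmad4 lines, grown from primary tumors of mice that carried Ptf1a-Cre, the reporter RIK (rtTA3 with mKate2) and an inducible hairpin against *Smad4*, so that Cre was active in the pancreatic lineage and doxycycline (Dox) in the chow silenced *Smad4*. Young adult female athymic nude mice, which lack T cells, received cells that also carried luciferase, into the pancreas, into the spleen before its removal for liver metastases, or into the tail vein for lung metastases. All hosts were fed Dox, and for the libraries labelled Smad4 on it was withdrawn at 4 weeks in the pancreas, 5 weeks in the liver and 6 weeks in the lungs. Cells were sorted on day 7 or day 14, and day 7 gave 3 libraries labelled Smad4 off and 2 labelled on from the pancreas, 2 off with 3 on from the liver, and 4 off with 2 on from the lungs. Day 14 gave 2 off with 3 on, 3 off with 3 on, and 4 off with 4 on in the same order of organs. Organ, route of injection and weeks of growth changed together and cannot be told apart here.

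Hepatocytes make most plasma proteins, and the 8 genes cover several of their roles. *Alb* encodes albumin, the main carrier protein of plasma, and *Ttr* encodes transthyretin, which carries thyroxine and retinol-binding protein. *Apoa1* and *Apoa2* encode the main proteins of high-density lipoprotein, and *Apoa1* is also made by enterocytes. *Fga* and *Fgb* encode the α and β chains of fibrinogen, which thrombin turns into fibrin, *Serpinc1* encodes antithrombin, the inhibitor of thrombin, and *Ahsg* encodes fetuin-A, a plasma protein that binds calcium phosphate. In healthy mouse liver these genes are among the strongest markers of hepatocytes, and factors of the HNF1, HNF4, C/EBP and FOXA families act on many of their promoters.

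The promoters are shown for *Fga* and *Fgb*, whose counts kept a steady ratio across the single-end liver libraries, and for *Alb* and *Apoa1*. The ratio of *Apoa1* to *Alb* varied most of all pairs in those libraries. RefSeq promoter windows of GRCm38.p6 were found for 7 of the 8 genes, and each sequence gives up to 250 bases before the RefSeq start, 5′ to 3′ on the strand of the gene, without bases that lie inside the gene as the count table places it. Capitals mark matches, on either strand, to 4 motifs. The core of the HNF1 site was searched as GTTAAT. The site of the C/EBP factors was searched as TTGCNNAA. The core of the HNF4 site was searched as CAAAGT. The last motif was the box CCAAT.
Alb, chr5:90460620-90460869, plus strand: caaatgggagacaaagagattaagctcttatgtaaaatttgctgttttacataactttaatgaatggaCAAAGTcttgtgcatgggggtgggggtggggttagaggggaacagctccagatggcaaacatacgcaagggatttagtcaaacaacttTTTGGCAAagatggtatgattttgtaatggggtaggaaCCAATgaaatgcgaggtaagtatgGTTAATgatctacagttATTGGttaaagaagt
Fga, chr3:83025903-83026075, plus strand: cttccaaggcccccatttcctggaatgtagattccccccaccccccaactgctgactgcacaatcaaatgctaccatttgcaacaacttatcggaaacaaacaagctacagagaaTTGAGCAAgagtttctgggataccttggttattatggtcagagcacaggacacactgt
Fgb, chr3:83049864-83050113, minus strand: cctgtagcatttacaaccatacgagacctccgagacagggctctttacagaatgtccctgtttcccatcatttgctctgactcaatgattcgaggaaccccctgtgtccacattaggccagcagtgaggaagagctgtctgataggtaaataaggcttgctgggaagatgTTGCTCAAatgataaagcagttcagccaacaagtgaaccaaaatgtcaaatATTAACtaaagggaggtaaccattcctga
Apoa1, chr9:46228380-46228579, plus strand: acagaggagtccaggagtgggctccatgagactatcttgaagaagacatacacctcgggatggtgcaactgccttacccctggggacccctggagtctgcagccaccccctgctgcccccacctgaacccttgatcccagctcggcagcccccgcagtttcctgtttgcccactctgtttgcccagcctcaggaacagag
TTGCNNAA was found in the full window of 5 of the 7 genes, *Alb*, *Fga*, *Fgb*, *Ahsg* and 1 of the 2 windows of *Apoa2*, and in 9.56% of the windows of all 32851 promoters. GTTAAT was found in 3 of the 7 genes and in 6.43% of all promoters. It began 32 bases before the start of *Alb*, 29 before that of *Fgb* and 43 before that of *Fga*, where it lay inside the gene as the table places it and is not printed. CAAAGT was found in 2 of the 7 genes, *Alb* and *Ahsg*, and in 12.6% of all promoters, and CCAAT in 2 of the 7 and in 33.8%. The window of *Apoa1* held no match to these 4 motifs. The longer palindrome of HNF1, CAAAGTCCA (0.384% of all promoters), TATAAA (12.4%) and GGGCGG (32.7%) were searched too, on both strands, and only TATAAA matched a member, in 1 window of *Apoa2*. Such matches are a description of the letters and not of binding.

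In the GRCm38 coordinates of the count table, *Fga* (3:83026076-83033627, plus strand) and *Fgb* (3:83040141-83049863, minus strand) are close together on chromosome 3. *Apoa2* (1:171225054-171226379) and *Serpinc1* (1:160978585-161005863) share chromosome 1 without being neighbours, and *Alb* (5:90460897-90476602), *Apoa1* (9:46228580-46230466) and *Ahsg* (16:22892042-22899438) lie on chromosomes of their own, as does *Ttr*, all on the plus strand.

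The libraries held 11885461 to 43571007 counts, which puts 3 counts, the floor used here, at 0.0689 to 0.252 CPM (counts scaled to the total of the library). *Smad4* itself went against the labels, at 77.9 to 132 CPM in the 18 libraries labelled off and 14.4 to 23.2 CPM in the 17 labelled on, so the labels are quoted as deposited and every label comparison is labelled on against labelled off. A total of 10 libraries, 4 of the liver and 6 of the lungs, held counts of the mitochondrial gene *mt-Co3*, and the other 25 held none. The library of liver day 7 labelled off mouse 2 was the only one labelled paired-end. It held 343 CPM of 8 pancreatic acinar genes, which summed to 0.143 to 0.643 CPM in the other 10 liver libraries and to 789 to 3510 CPM in primary tumors, and 629 CPM of 7 stellate cell and fibroblast genes, against at most 132 CPM in the other liver libraries. It is kept with its label, and several results are also given without it.

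The 8 genes together were a very small share of every library, including those of the liver. Their sum was 2.03 to 12.2 CPM in primary tumors (median 3.36, n = 10), 1.76 to 135 CPM in liver metastases (median 39.4, n = 11) and 3.87 to 60.3 CPM in lung metastases (median 14.6, n = 14). The highest library, liver day 7 labelled on mouse 3, held 3769 counts of the 8 genes, or 135 CPM with a 95% Wilson interval of 131 to 139, and the lowest, the paired-end liver library, held 50 counts, or 1.76 CPM with an interval of 1.33 to 2.32. These intervals cover counting error only. For scale, 7 genes that mark ductal and tumor epithelium, among them *Krt8*, *Krt18* and *Epcam*, summed to 13100 to 20600 CPM in the same libraries.

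**Figure D1:**
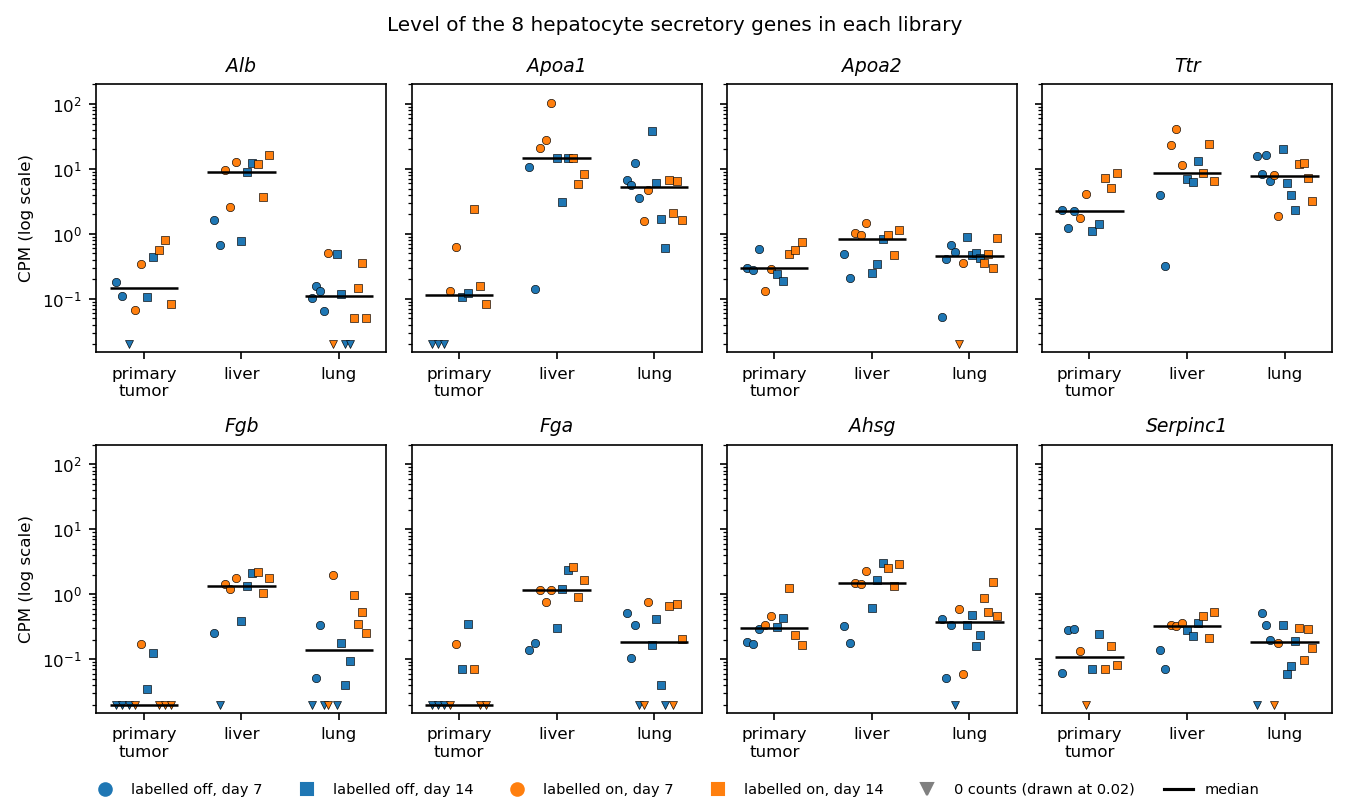
Each panel plots 1 gene in 35 libraries, with CPM on a log axis, blue for libraries labelled off and orange for those labelled on, circles for day 7, squares for day 14, triangles at 0.02 for libraries at 0 counts and a bar at the median of each organ. *Alb* is at least 0.668 CPM in every liver library and at most 0.505 CPM in every lung library, whereas *Apoa1* and *Ttr* have medians of 5.21 and 7.69 CPM in the lungs.

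Per base of merged exon, which allows genes to be compared, the order of the members differed between organs. In liver metastases the median level in RPKM (CPM divided by exon length in kilobases) was 11.8 for *Apoa1*, 7.26 for *Ttr*, 3.9 for *Alb*, 1.53 for *Apoa2*, 0.668 for *Ahsg*, 0.381 for *Fga*, 0.346 for *Fgb* and 0.0385 for *Serpinc1*, whose exons span 8546 bases in the annotation through 1 long transcript. In lung metastases *Ttr* (6.48 RPKM) and *Apoa1* (4.22) led and *Alb* was at 0.0478. In primary tumors *Ttr* led at 1.91 RPKM, and *Alb* was at 0.0625. The ranges within an organ were wide: in the liver those of *Apoa1* (0.114 to 83.8 RPKM), *Ttr* (0.267 to 34.6) and *Alb* (0.285 to 6.95) overlapped, so neighbours in these orders did not differ beyond their spread. *Alb*, which leads by far in healthy hepatocytes, was thus not the leading gene of the 8 in any organ by its median. Of all counts of the 8 genes in the liver (14974), *Apoa1* took 45.1%, *Ttr* 29.6% and *Alb* 14.9%. In the lungs (4070 counts) these shares were 37.1%, 51.7% and 0.811%, and in primary tumors (832 counts) 6.97%, 65% and 5.77%.

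Liver metastases were compared with primary tumors and with lung metastases to ask how far the 8 genes followed the organ. The test was edgeR's quasi-likelihood test over 17547 genes, in which calls required more than a 2-fold difference with an adjusted P value (Benjamini-Hochberg) under 0.05, with each organ taken as the mean of its 4 groups of day and label. In liver metastases against primary tumors, 7 of the 8 members were called higher and none lower, where 11.5% of all genes tested were called higher, 9.41% lower and 20.9% in either direction, and *Serpinc1* was not called. In liver against lung metastases, 3 members, *Alb*, *Fgb* and *Ahsg*, were called higher and none lower, where 4.02% of all genes were called higher, 4.55% lower and 8.57% in either direction. In lung metastases against primary tumors, 4 members, *Apoa1*, *Ttr*, *Fgb* and *Fga*, were called higher and none lower, where 13.4% of all genes were called higher, 8.33% lower and 21.8% in either direction. The median log2 fold change of the 8 members was 3 against 0.05 for all genes in the first comparison, 1.41 against 0.02 in the second and 0.98 against 0.06 in the third. The comparisons share libraries, and in bulk RNA fewer cells of a type and less RNA per cell cannot be told apart.

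*Alb* had the highest log2 fold change of the 8 members in liver against lung metastases. It ranged from 0.668 to 16.3 CPM in liver metastases (median 9.14, n = 11), from 0 to 0.505 CPM in lung metastases (median 0.112, n = 14) and from 0 to 0.796 CPM in primary tumors (median 0.146, n = 10). Every liver library lay above every lung library, and 9 of the 11 lay above every primary tumor library. The exceptions were the paired-end library (0.668 CPM) and liver day 14 labelled off mouse 1 (0.775 CPM). The log2 fold change was 4.54 ± 0.64 (SE) against primary tumors (adjusted P = 2.85e-06, edgeR) and 5.19 ± 0.63 against lung metastases (adjusted P = 2.13e-06). Without the paired-end library the values were 4.65 and 5.31, and within the 25 libraries without *mt-Co3* counts 4.26 and 4.49. Lung metastases and primary tumors were not distinguished by *Alb* (log2 fold change -0.65 ± 0.68, adjusted P = 0.443), and 11 of the 14 lung libraries and 6 of the 10 primary tumor libraries held at most 3 *Alb* counts.

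*Ahsg* was also highest in liver metastases. It ranged from 0.176 to 3.03 CPM in the liver (median 1.47), from 0 to 1.54 CPM in the lungs (median 0.377) and from 0.164 to 1.26 CPM in primary tumors (median 0.305). The liver range overlapped both others, with 8 of 11 liver libraries above every primary tumor library and 5 above every lung library. The log2 fold change was 1.68 ± 0.43 against primary tumors (adjusted P = 0.00257, edgeR) and 1.79 ± 0.41 against lung metastases (adjusted P = 0.00238). Between lung metastases and primary tumors it was -0.11 ± 0.43 (adjusted P = 0.857), and this value turned positive, to 0.11, without lung day 7 labelled on mouse 2.

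The fibrinogen genes were near the floor outside the liver. *Fgb* ranged from 0 to 2.22 CPM in liver metastases (median 1.32), from 0 to 1.99 CPM in lung metastases (median 0.136) and from 0 to 0.173 CPM in primary tumors (median 0), where 7 of 10 libraries held no count. *Fga* ranged from 0.138 to 2.62 CPM in the liver (median 1.15), from 0 to 0.762 CPM in the lungs (median 0.184) and from 0 to 0.342 CPM in primary tumors (median 0), where 6 of 10 libraries held no count. Both passed the low-count filter through liver and lung libraries. Mean levels in the liver were 36.9 times those of primary tumors for *Fgb* and 17.2 times for *Fga*. Without the primary tumor library highest in each gene, a choice made after the values were seen, these ratios were 69.4 for *Fgb* (without day 7 labelled on mouse 2) and 32.4 for *Fga* (without day 14 labelled off mouse 2). The fitted log2 fold changes, 5.18 ± 0.9 (adjusted P = 6.69e-05, edgeR) and 4.21 ± 0.86 (adjusted P = 0.000293), depend on the prior count because primary tumor groups of both genes were at 0 in every library.

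The place of the lungs was less certain for fibrinogen. In liver against lung metastases *Fgb* was called (log2 fold change 1.71 ± 0.58, adjusted P = 0.0408, edgeR) and *Fga* was not (1.56 ± 0.59, adjusted P = 0.0649). The call of *Fgb* was lost in 18 of 35 fits that each left out 1 library and with the mouse number as a block (adjusted P = 0.065), and *Fga* was called in 3 of the 35. One lung library, day 7 labelled on mouse 2, held 34 *Fgb* counts (1.99 CPM) and 13 *Fga* counts (0.762 CPM), while the other library of its group held 0 of both. Without it, the values of liver against lung metastases were 3.58 for *Fgb* and 3.1 for *Fga* (both called, 5 members in all), and neither gene was called in lung metastases against primary tumors (log2 fold changes 1.59 and 1.09, adjusted P = 1 for both), where they had been 3.47 ± 0.97 (adjusted P = 0.00529) and 2.65 ± 0.88 (adjusted P = 0.0157). Within the libraries without *mt-Co3* counts, which leave out the same library, 2 members, *Apoa1* and *Ttr*, were called in lung metastases against primary tumors. Without liver day 7 labelled off mouse 1, which leaves the paired-end library with 0 *Fgb* counts alone in its group, *Fgb* was not called against primary tumors (3.99, adjusted P = 1) or lung metastases (0.53, adjusted P = 0.955), and 5 members were called in the first comparison. *Fgg*, the gene of the third fibrinogen chain, ranged from 0.0351 to 1.73 CPM in the liver (median 0.524), and was at 0 in 8 of 14 lung libraries and 8 of 10 primary tumor libraries.

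*Apoa1* and *Ttr* were found in metastases of both organs. *Apoa1* ranged from 0.141 to 104 CPM in the liver (median 14.6), from 0.606 to 38 CPM in the lungs (median 5.21) and from 0 to 2.46 CPM in primary tumors (median 0.115). In all, 10 of 11 liver libraries and 9 of 14 lung libraries lay above every primary tumor library, and the exception in the liver was the paired-end library. Mean levels were 55.3 times those of primary tumors in the liver and 18.9 times in the lungs. The primary tumor mean rested largely on day 14 labelled on mouse 1 (2.46 CPM), and without that library, left out after the values were seen, the ratios were 148 and 50.7. The fitted log2 fold changes were 6.73 ± 0.99 (adjusted P = 6.62e-06, edgeR) and 5.47 ± 0.97 (adjusted P = 6.39e-05), and they depend on the prior count because the 3 primary tumor libraries of day 7 labelled off were all at 0. Liver and lung metastases overlapped over nearly their whole range, and their difference was not called (1.26 ± 0.59, adjusted P = 0.139). It was called without lung day 14 labelled off mouse 1, the highest lung library (1.75, adjusted P = 0.0256, edgeR). The log2 fold change was -0.00419 without liver day 7 labelled off mouse 1, which leaves the paired-end library alone in its group. Without the paired-end library it was 1.51.

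*Ttr* was the one member with more than 3 counts in every library. It ranged from 0.316 to 41 CPM in the liver (median 8.61), from 1.88 to 20.1 CPM in the lungs (median 7.69) and from 1.09 to 8.52 CPM in primary tumors (median 2.27). The lowest of all 35 libraries was the paired-end liver library. The log2 fold change was 1.8 ± 0.41 for liver metastases against primary tumors (adjusted P = 0.000821, edgeR) and 1.53 ± 0.4 for lung metastases against primary tumors (adjusted P = 0.00259). Between liver and lung metastases it was 0.26 ± 0.36 (adjusted P = 0.675), and 0.48 without the paired-end library.

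*Apoa2* and *Serpinc1* had the smallest log2 fold changes of the 8 members in liver metastases against primary tumors. *Apoa2* ranged from 0.211 to 1.47 CPM in the liver (median 0.822), from 0 to 0.91 CPM in the lungs (median 0.449) and from 0.134 to 0.738 CPM in primary tumors (median 0.296). Its call against primary tumors was at the threshold (log2 fold change 1.01 ± 0.38, adjusted P = 0.0303, edgeR). It was lost in 19 of the 35 fits that left out 1 library, with the mouse number as a block (0.94) and within the libraries without *mt-Co3* counts (0.83, adjusted P = 0.0553). *Serpinc1* ranged from 0.0703 to 0.541 CPM in the liver (median 0.329), 2 to 16 counts, from 0 to 0.515 CPM in the lungs (median 0.181) and from 0 to 0.295 CPM in primary tumors (median 0.108). Its log2 fold change against primary tumors was 1.07 ± 0.51 (adjusted P = 0.0856), and it was called in 1 of the 35 fits that left out 1 library (1.92, adjusted P = 0.0329, without primary tumor day 7 labelled on mouse 1). In 7 of 10 primary tumor and 8 of 14 lung libraries *Serpinc1* held at most 3 counts.

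**Figure D2:**
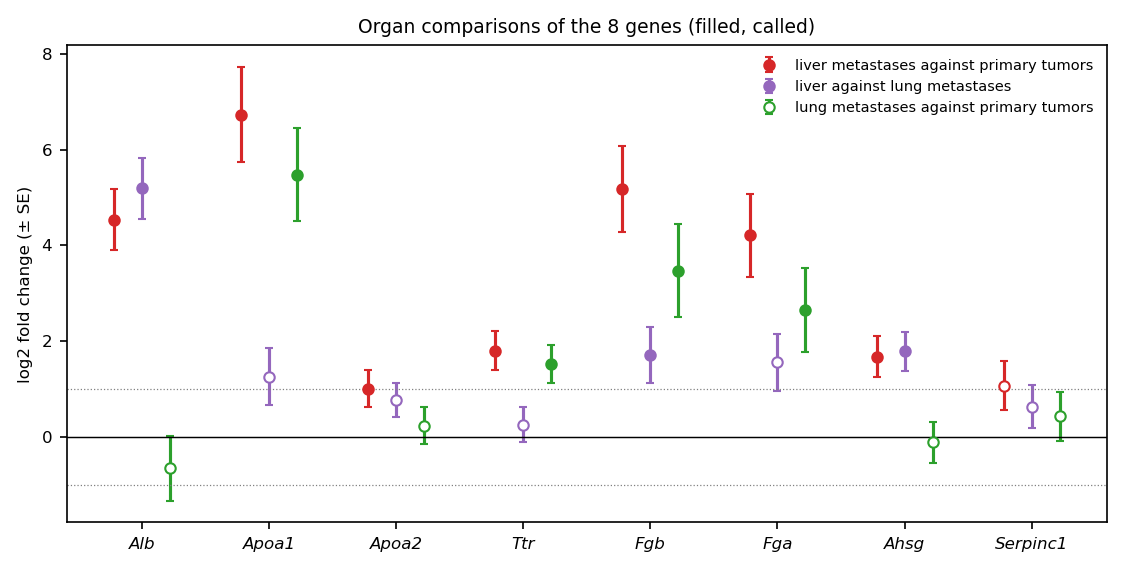
Points give the log2 fold change of each gene in 3 comparisons of organs, with bars of 1 SE from edgeR, filled where the gene was called and open where it was not, and dotted lines at a fold change of 2. *Alb* and *Ahsg* stand above 1 only in the comparisons of the liver, and *Apoa1* and *Ttr* stand above 1 in both comparisons with primary tumors.

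In liver against lung metastases, *Alb* and *Ahsg* were called within the 25 libraries without *mt-Co3* counts (log2 fold changes 4.49 and 1.25) and within the 10 with them (7.96 and 3.92). *Fgb* was called without them (3.42, adjusted P = 0.0078) and not with them (1.71, adjusted P = 1). *Apoa2* was called within the first set alone (1.96) and *Fga* within the second alone (3.48). Primary tumors held no library with *mt-Co3* counts, so comparisons with them could be repeated only without them: 6 of the 7 members that passed the filter there were called in liver metastases, all but *Apoa2*, and *Serpinc1* was not tested. Without the paired-end library the same numbers of members, 7, 3 and 4, were called in the 3 comparisons.

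Within the single-end liver libraries, *Fgb*, *Fga* and *Ahsg* kept the steadiest ratios to each other from library to library. In these 10 libraries the SD of the log2 ratio of counts was 0.21 for *Fgb* to *Ahsg*, 0.35 for *Fgb* to *Fga* and 0.37 for *Fga* to *Ahsg*. These were the 3 smallest of the 28 pairs. With the paired-end library, in which *Fgb* was not detected, they were 0.95, 1.17 and 0.4, and that of *Apoa2* to *Serpinc1* was 0.59. The SDs that follow are again of the single-end libraries. *Alb* followed these genes less tightly, with an SD of 0.75 to both *Fgb* and *Fga* and of 0.78 to *Ahsg*. The low-count gene *Serpinc1* had an SD of 0.61 to *Apoa2*, 0.64 to *Ahsg* and 0.68 to *Fgb*, and *Apoa2* one of 0.76 to *Fgb*. The largest SDs were 1.94 for *Alb* to *Apoa1* and 1.84 for *Apoa1* to *Fga*. As counts, *Ahsg* was 1.02 to 1.67 times *Fgb* in the 10 libraries in which *Fgb* was detected (median 1.27), and *Fga* was 0.545 to 1.18 times *Fgb* (median 0.831). In contrast, *Apoa1* was 0.211 to 18.8 times *Alb* (median 1.57, n = 11), and *Ttr* was 0.402 to 15.6 times *Alb* (median 1.07). The 0.211 was that of the paired-end library, and the next lowest was 0.333.

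Single libraries show the same. Liver day 14 labelled off mouse 1 held 28 *Alb* counts and 527 *Apoa1* counts, and liver day 14 labelled off mouse 2 held 243 and 81. The 2 libraries thus had an *Alb* level of 0.775 and 9.14 CPM and an *Apoa1* level of 14.6 and 3.05 CPM, in opposite order. Liver day 7 labelled on mouse 3 had the highest *Apoa1* level (104 CPM) with an *Alb* level of 12.9 CPM, and liver day 14 labelled on mouse 3 had the highest *Alb* level (16.3 CPM) with an *Apoa1* level of 8.49 CPM. *Apoa4*, which lies beside *Apoa1* on chromosome 9 and was looked at after the values were seen, had its highest liver level in the same library as *Apoa1*, 23.1 CPM, and was at 0 in all 10 primary tumor libraries. Its mean level was at least 383-fold higher in liver metastases and at least 121-fold higher in lung metastases than the limit of 3 counts over all primary tumor libraries. *Apoc3*, between them in the genome and chosen in the same way, was also at 0 in all 10, with at least 36.6-fold and 18-fold higher mean levels in liver and lung metastases.

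**Figure D3:**
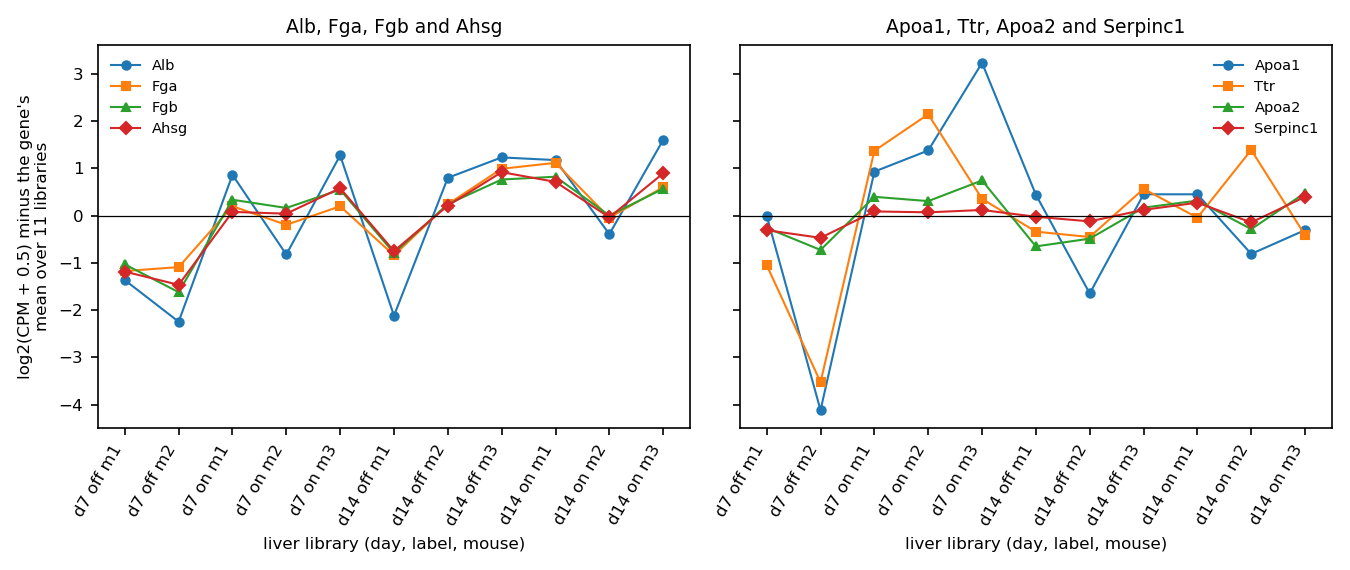
Lines give log2(CPM + 0.5) of each gene in the 11 liver libraries minus the mean of that gene over them, in the order of day, label and mouse. In 1 panel *Alb*, *Fga*, *Fgb* and *Ahsg* have their lowest points at the libraries labelled off of day 7 and at day 14 labelled off mouse 1, and in the other *Apoa1* and *Ttr* peak in different libraries.

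Liver metastases on day 7 gave the largest label differences among the 8 genes, but none was called. *Alb* was at 1.65 and 0.668 CPM in the 2 libraries labelled off and at 9.56, 2.63 and 12.9 CPM in the 3 labelled on. *Apoa1* was at 10.6 and 0.141 against 20.7, 28.4 and 104 CPM, and *Ttr* at 4.04 and 0.316 against 23.8, 41 and 11.5 CPM. *Fga* was at 0.138 and 0.176 against 1.15, 0.757 and 1.15 CPM, and *Ahsg* at 0.321 and 0.176 against 1.47, 1.42 and 2.29 CPM. For all 8 members every library labelled on lay above both labelled off, of which 1 is the paired-end library. The share of all genes with this pattern was not counted, so it describes the values and is not a result about the members. The log2 fold changes ran from 1.52 to 3.44, with a median of 2.68 against -0.06 for all 16007 genes tested. Members with few counts labelled off, such as *Fga*, *Fgb* and *Serpinc1*, passed the low-count filter only through libraries labelled on, which favors positive values. With at least 10 counts required in every library, only *Alb* was left, at 2.78 and not called. Of all genes, 0.444% were called in either direction, 0.181% higher and 0.262% lower. The smallest adjusted P values of members were 0.0743 for *Ahsg* (log2 fold change 2.63 ± 0.56, edgeR) and 0.0783 for *Fga* (2.53 ± 0.56). With 0 members called by edgeR, 7 members had an unadjusted P value under 0.05, as had 2217 of all 16007 genes in the higher direction and 2123 in the lower. DESeq2 called 5 members (*Alb*, *Ttr*, *Fgb*, *Fga* and *Ahsg*), and the share of all genes that it called is not given here.

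These values rest on few libraries, and 1 of the 2 labelled off is the paired-end library. Without it the log2 fold changes ran from 1.2 for *Apoa2* to 2.8 for *Fga*, no member was called, and the single remaining library labelled off was assumed to vary like the others. Without the other library labelled off, mouse 1, the paired-end library stood alone for that label. The log2 fold changes then ran from 2.01 for *Serpinc1* to 8.49 for *Fgb*. Within the 3 libraries without *mt-Co3* counts, a fit with 1 library labelled off, they ran from 0.97 for *Apoa2* to 2.92 for *Ttr*. Other genes moved alongside: the summed level of 24 genes of hepatocyte metabolism was 8.93 to 46 CPM in the libraries labelled off and 162 to 257 CPM in those labelled on, and that of 24 other secreted liver proteins 110 to 414 and 995 to 1340 CPM. The 7 Kupffer cell markers, of macrophages resident in the liver, summed to 2.04 to 4.99 and 4.37 to 12.9 CPM, which overlap. The leukocyte list did not overlap, at 8.72 to 10 CPM labelled off and 26.3 to 35.8 CPM labelled on, and neither did the lung epithelial list, at 8.68 to 35.7 and 141 to 326 CPM. The lists of acute-phase genes (46.3 to 98.2 and 135 to 208 CPM), hepatocyte transcription factors (272 to 589 and 723 to 775 CPM), pericentral genes (244 to 487 and 537 to 594 CPM) and periportal genes (3.83 to 9.89 and 15.1 to 54.3 CPM) were also higher in every library labelled on. The acinar list was lower in all 3 libraries labelled on (0.21 to 0.609 CPM), and the lists of sinusoidal endothelium, stellate cells, ductal and tumor epithelium and erythroid cells overlapped. What part any of these has in the difference was not tested.

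On day 14 no member was called between the labels in the liver. *Alb* was at 0.775, 9.14 and 12.5 CPM in the libraries labelled off and at 12, 3.72 and 16.3 CPM in those labelled on, and *Apoa1* at 14.6, 3.05 and 14.7 against 14.7, 5.84 and 8.49 CPM. The groups overlapped for all 8 members. The filter passed 7 members (all but *Serpinc1*), with log2 fold changes from -0.25 ± 0.64 for *Apoa1* to 0.84 ± 0.62 for *Apoa2* and adjusted P values of 0.724 to 0.94 (edgeR). DESeq2 called none either, and none had an unadjusted P value under 0.05. Of 14947 genes edgeR called 0, and without adjustment 689 had P values under 0.05 in the higher direction and 758 in the lower. The difference between the label effects of the 2 days was negative for all 8 members, from -0.81 ± 0.98 for *Apoa2* to -3.5 ± 1.81 for *Apoa1* (log2). None was called by edgeR or DESeq2, where edgeR called 0.12% of all genes (0.057% higher and 0.0627% lower). In edgeR 2 members had an unadjusted P value under 0.05, as had 1014 of 17547 genes in the higher direction and 1337 in the lower. *Ttr* came closest (-2.99 ± 1.11, adjusted P = 0.194). It was called lower with a term for *mt-Co3* counts, and *Apoa1* and *Ttr* were called lower without liver day 7 labelled off mouse 1.

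**Figure D4:**
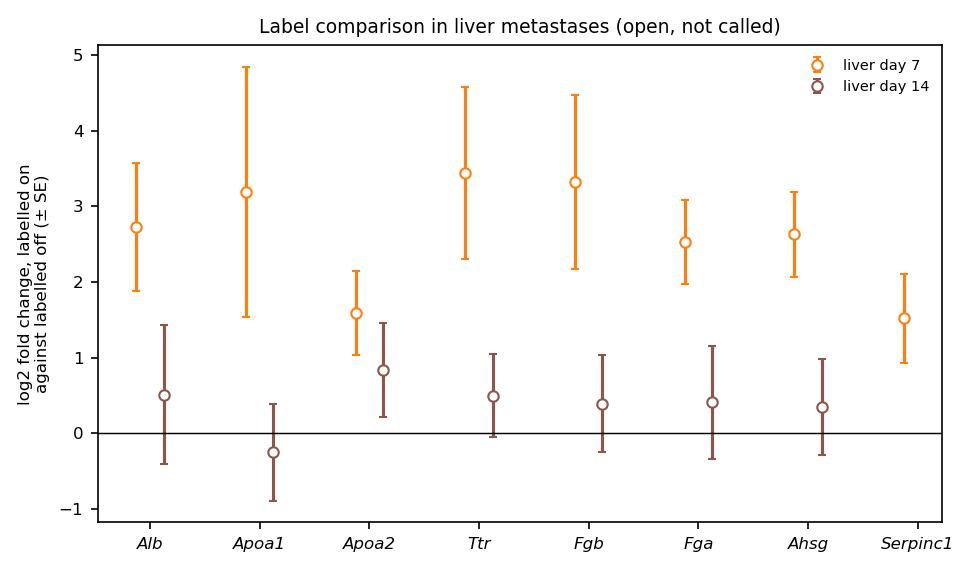
Points give the log2 fold change of each member, labelled on against labelled off, in liver metastases of day 7 and day 14, with bars of 1 SE from edgeR and open symbols because no member was called. All 8 points of day 7 lie at 1.52 or above, and the 7 of day 14 lie between -0.25 and 0.84.

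Averaged over labels, no member was called in liver metastases of day 14 against day 7, although 6 of the 8 log2 fold changes were positive, with a median of 1.13 against 0.01 for all genes. *Ahsg* (log2 fold change 1.56 ± 0.57), *Fga* (1.83 ± 0.85) and *Alb* (1.48 ± 0.72) had unadjusted P values of 0.0114, 0.042 and 0.0499, and *Apoa1* was at -0.69 ± 0.85. Adjusted P values were at least 0.417 (edgeR), and DESeq2 called no member either. Over all genes edgeR called 0, and without adjustment 832 had P values under 0.05 in the higher direction and 727 in the lower.

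In primary tumors *Ttr* was the only member above the filter in either day's label comparison. On day 14 it was at 1.09 and 1.4 CPM in the libraries labelled off and at 7.3, 5.02 and 8.52 CPM in those labelled on, with no overlap. It was called higher (log2 fold change 2.38 ± 0.32, adjusted P = 0.00341, edgeR), as were 3.39% of 14234 genes, with 1.26% called lower and 4.64% in either direction. The call was lost without day 14 labelled off mouse 1 (2.21, adjusted P = 0.0569) and in a single fit of all 12 groups (2.36, adjusted P = 0.389). On day 7 *Ttr* was at 2.3, 1.23 and 2.24 CPM in libraries labelled off and at 1.74 and 4.05 CPM in those labelled on, which overlap (0.57 ± 0.46, adjusted P = 0.498), and 1.33% of 14439 genes were called (0.956% higher and 0.374% lower).

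In the label comparisons of lung metastases 2 of the 8 members, *Apoa1* and *Ttr*, passed the filter and were tested, and neither was called on either day. On day 7 the mean *Apoa1* level was 7.06 ± 3.75 CPM (SD, n = 4) labelled off and 3.2 ± 2.27 CPM (n = 2) labelled on, and that of *Ttr* 11.8 ± 5.06 and 4.93 ± 4.33 CPM. On day 14 the *Apoa1* level was 11.6 ± 17.7 and 4.21 ± 2.73 CPM (n = 4 each), and that of *Ttr* 8.1 ± 8.14 and 8.64 ± 4.24 CPM. The log2 fold changes were -0.93 ± 0.63 and -1.39 ± 1.1 for *Apoa1* and -1.2 ± 0.59 and 0.1 ± 0.64 for *Ttr* on the 2 days. Neither gene had an unadjusted P value under 0.05, and DESeq2 called neither. The other 6 members were not tested there. On day 14 *Fgb* was at 0, 0.179, 0.0393 and 0.0933 CPM in libraries labelled off, at most 3 counts each, and at 0.964, 0.342, 0.531 and 0.252 CPM in those labelled on, with no overlap. *Ahsg* was at 0.331, 0.479, 0.157 and 0.233 CPM labelled off and at 0.863, 0.537, 1.54 and 0.454 CPM labelled on, where 1 library labelled off lay above the lowest labelled on. Of 15193 genes edgeR called 0 on day 7, where 366 in the higher and 427 in the lower direction had unadjusted P values under 0.05, and on day 14 it called 0.0271% of 14751 (0.0203% higher and 0.00678% lower).

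Ordered by mean CPM over the 12 groups, liver groups took at least 3 of the first 4 places for every member but *Apoa2*. Liver day 7 labelled on led for *Apoa1* (50.9 ± 45.8 CPM, n = 3), *Ttr* (25.4 ± 14.8) and *Apoa2* (1.16 ± 0.274), and liver day 14 labelled on led for *Alb* (10.7 ± 6.38), *Fgb* (1.68 ± 0.596), *Fga* (1.73 ± 0.861), *Ahsg* (2.29 ± 0.858) and *Serpinc1* (0.403 ± 0.169). Of the 11 steps between neighbouring groups in each order, at most 2 exceeded the combined SD of the neighbours, and none did for *Apoa2* or *Serpinc1*. For *Alb*, *Fga* and *Ahsg* the 1 such step fell after the third group, below liver day 14 labelled on, liver day 14 labelled off and liver day 7 labelled on. Liver day 7 labelled off stood above every group of the other organs only for *Alb* (1.16 ± 0.696 CPM, n = 2). For every other member its mean ranked below that of some lung group, among them *Ahsg* (0.249 ± 0.103 CPM) and *Serpinc1* (0.104 ± 0.0477). For *Ttr* (2.18 ± 2.63 CPM) it ranked below all lung groups.

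Other genes of hepatocytes were compared by lists. Of 24 other secreted liver proteins, 18 were tested, and in liver metastases against primary tumors 10 were called higher and 1 lower, with a median log2 fold change of 1.45. Against lung metastases 5 were higher and 5 lower (median 0.35). The most abundant was *Apob*, the structural protein of very low density lipoprotein, with medians of 619 CPM in the liver, 310 in the lungs and 89.2 in primary tumors (log2 fold change 2.27 ± 0.23 against primary tumors, adjusted P = 3.32e-08, edgeR). *Trf*, transferrin, was lower in the liver than in the lungs (medians 6.96 and 48.2 CPM, log2 fold change -2.31 ± 0.36, adjusted P = 5.79e-05). *Vtn*, vitronectin, was lower in liver metastases than in primary tumors (medians 0.445 and 1.43 CPM, log2 fold change -1.29 ± 0.43, adjusted P = 0.0166).

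Metabolic genes of hepatocytes were mostly near the floor in every organ. Of 24 such genes, 13 were tested and 6 were called higher in liver metastases than in primary tumors (median 2.55), 3 higher than in lung metastases (median 0.54), and none lower. Of the 24, 19 had a median under 1 CPM in the liver, and 21 had one in the lungs and in primary tumors. *Arg1*, arginase of the urea cycle, had medians of 2.41 CPM in the liver, 1.31 in the lungs and 6.13 in primary tumors. *Cps1*, the first enzyme of the urea cycle, which was picked after its values were seen, had a liver median of 0.853 CPM and a highest value of 4.51 CPM. Of 8 pericentral genes 6 were tested, with 3 called higher against primary tumors, and of 8 periportal genes likewise 6 and 3. *Glul*, glutamine synthetase, had medians of 288, 195 and 130 CPM in liver, lungs and primary tumors, and its log2 fold change of 0.93 ± 0.17 against primary tumors was under the fold threshold. *Hal*, histidase, had medians of 4.16, 0.868 and 0.348 CPM and was called higher in the liver than in both other organs (log2 fold changes 3.41 ± 0.58 and 1.86 ± 0.48).

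Transcription factors of hepatocytes were present in all 3 organs. Of 14, 13 were tested, and 5 were called higher and 1 lower in liver metastases against primary tumors (median 0.88), 9 were called higher in lung metastases against primary tumors (median 1.26), and 1 was higher and 2 were lower in liver against lung metastases (median -0.27). *Hnf4a* had medians of 268 CPM in the liver, 311 in the lungs and 129 in primary tumors, and its log2 fold change was -0.24 ± 0.17 in liver against lung metastases (adjusted P = 0.371, edgeR). *Cebpb* had medians of 78.7, 140 and 53.3 CPM in the same order. Of 6 acute-phase genes tested, 1 was called higher and 2 lower in liver against lung metastases, and 3 higher in lung metastases against primary tumors. *Itih4* had medians of 7.42 CPM in the liver and 30.5 in the lungs (log2 fold change -2.81 ± 0.3, adjusted P = 2.77e-07), and *Lbp*, which binds bacterial lipopolysaccharide, 104 and 233 CPM.

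Markers of other cells set these levels beside those of the host organs. In primary tumors all 8 pancreatic acinar genes were called higher than in liver and in lung metastases, with a median summed level of 2120 CPM, and the 3 most abundant were *Ctrb1* (729 CPM), *Prss2* (317) and *Pnlip* (265). In lung metastases all 8 lung epithelial genes were called higher than in primary tumors and 7 of 8 higher than in liver metastases. *Sftpc*, surfactant protein C of alveolar type 2 cells, had a median of 131 CPM in the lungs and 0 in both other organs. *Sftpd* was found in the liver (median 138 CPM) as in the lungs (87.7). The Kupffer cell list summed to 2.04 to 20.8 CPM in the liver, 1.04 to 16.4 in the lungs and 14.6 to 31 in primary tumors. Its defining marker *Clec4f* was at 0 in all lung and primary tumor libraries and had a median of 0.322 CPM in the liver. Of the 5 genes of this list that were tested, 3 were called higher and 2 lower in liver metastases than in primary tumors. The 2 lower ones were *Adgre1* and *Csf1r* (log2 fold changes -1.59 ± 0.44 and -1.69 ± 0.38). Sinusoidal endothelial genes summed to 7.53 to 24.6, 8.2 to 22.6 and 8.23 to 23.2 CPM in liver, lungs and primary tumors. Of these 7 genes, *Stab2* and *Clec4g* were called higher in the liver than in primary tumors (log2 fold changes 3.65 ± 0.53 and 5.52 ± 1.04) and in the lungs (1.21 ± 0.4 and 4.22 ± 0.85), and *Lyve1* and *Gpr182* were called lower than in the lungs (-2.47 ± 0.34 and -1.18 ± 0.25). In the same order of organs, leukocyte genes summed to 8.72 to 170, 27.8 to 339 and 23.2 to 77.7 CPM and erythroid genes to 2.47 to 57.9, 3.2 to 149 and 10.2 to 85.4 CPM. Their part in the levels of the 8 genes was not tested.

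**Figure D5:**
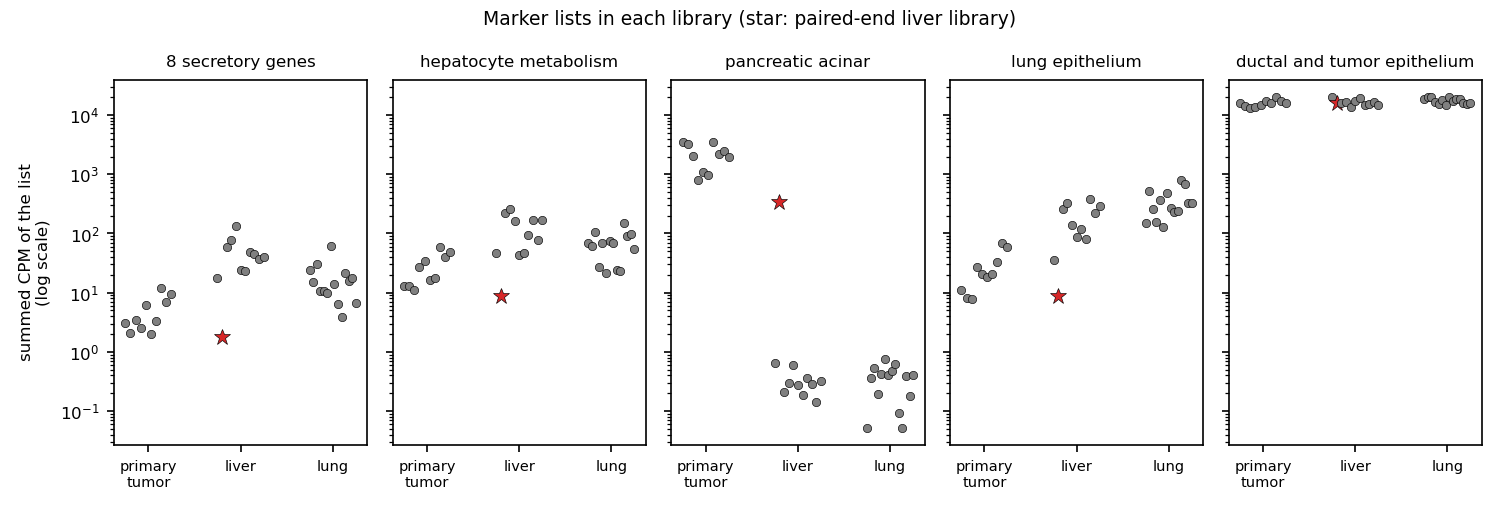
Points give the summed CPM of 5 gene lists in each library on a log axis, by organ, with a red star for the paired-end liver library. The acinar and lung epithelial lists reach medians of 2120 CPM in primary tumors and 300 CPM in the lungs, the 8 secretory genes a median of 39.4 CPM in the liver, and the star lies at 343 CPM on the acinar panel.

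The genes whose levels across the 35 libraries were most like the mean log2(CPM + 0.5) of the 8 members were searched among 17527 genes. The 10 with the highest Pearson correlation were *Plekhg6* (r = 0.95), *Slc25a17* (0.95), *Upk3bl*, *Ipmk*, *Jakmip1*, *Kyat1*, *B4galnt3*, *BC016579* and *Lpar5* (0.94 each) and *Bspry* (0.93). The points share libraries and depth, and the values are a description. *Plekhg6* had medians of 23.7 CPM in the liver, 7.28 in the lungs and 2.82 in primary tumors, and *Upk3bl* 17.6, 2.51 and 0.908 CPM. Both were lowest among liver libraries at 2.35 and 0.879 CPM.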

How the data were processed

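RNA was poly(A)-selected and sequenced as 75 bp single-end reads with a stranded kit, with 1 library labelled paired-end. Per the submitters' processing notes, the tools were FastQC 0.11.5, Trimmomatic 0.36, STAR 2.5.3a and featureCounts 1.6.3 on GRCm38, and the authors deposited raw counts per gene, not normalized. CPM is counts scaled to the library total, RPKM further divides by merged exon length (GENCODE vM21), and 0 columns were left unmatched. Groups come from the labels, and nothing there ties libraries of different groups to one animal, so P values measure the spread between libraries.

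Genes were kept by filterByExpr (a count of at least 10 and a total of at least 15), libraries were normalized by TMM, and models were fitted with edgeR 4.0.16 in R 4.3.3 by the quasi-likelihood test. The 3 organ comparisons, the day and the label by day comparison used 1 fit of 12 groups, and label comparisons used 1 fit per organ and day. P values were adjusted by Benjamini-Hochberg over all genes tested. The script was tested on simulated counts. The members, lists and tests were chosen with earlier results of these data known. Named genes were the 8 members, from each other list the 3 most abundant and the 2 with the lowest log2 fold change in liver metastases against primary tumors (given where they bear on the members), and 10 genes of like pattern. Some named items are not reported here. Alternatives were DESeq2 1.42.0, its size factors, other filters, a block for mouse number, a term for or a split by *mt-Co3* counts, leaving out each library, and fits of fewer or more groups. After seeing the data, the 10 libraries with *mt-Co3* counts were also fitted alone. Deviations of log CPM from the group mean were correlated between same-numbered libraries of the 2 labels. The values were 0.55 to 0.65 in all 4 pairs of lung day 14 and -0.35 to 0.48 elsewhere. In lung day 14, under both labels, mouse 1 and 2 held no *mt-Co3* counts and mouse 3 and 4 held some. The part of this split in the correlation was not tested.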

Additional observations from a re-analysis of the deposited data

Results flagged for a closer look

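A few values of the members stood out. *Apoa1* in lung day 14 labelled off mouse 1 was 38 CPM, far from the other 3 libraries of its group, of which the next was 6.1 CPM, with the gap 0.853 of the range. *Fgb* in lung day 7 labelled off was 0.336 CPM in mouse 3 (5 counts) and 0.0515 CPM in the next of 4 libraries, with the gap 0.847 of the range. Chance flags about 1 group in 20 in this way, and 24 combinations of gene and group were examined. *Fgb* also moved in opposite directions with the label on day 14: its mean was 0.522 CPM labelled on and 0.078 CPM labelled off in the lungs, and 0 and 0.0796 CPM in primary tumors, without overlap in either organ. This difference between organs was not tested, and the primary tumor libraries held at most 4 *Fgb* counts.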

How the results depend on the processing

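The members called in liver metastases against primary tumors numbered 5 to 7 without single libraries and 6 or 7 under the other alternatives, and *Alb*, *Apoa1*, *Ttr*, *Fga* and *Ahsg* were called in every fit. In liver against lung metastases 2 to 5 were called without single libraries and 2 to 4 under the others, with *Alb* and *Ahsg* in every fit. In lung metastases against primary tumors 2 to 4 were called without single libraries, 2 within libraries without *mt-Co3* counts and 4 under the others, with *Apoa1* and *Ttr* in every fit. The filter of 10 counts in every library left no member in these comparisons. In label by day, 1 was called with a term for *mt-Co3* counts and 0 to 2 without single libraries. In the label comparison of liver day 7, DESeq2 called 5 and the fit of 12 groups 2, where the called number of all genes reached 3496 over the alternatives. Fits of that comparison with 1 library labelled off are not counted here. In primary tumors no low-count filter gave 1 on day 7 and 2 on day 14, the fit of 12 groups gave 0 on day 14, and fits without single libraries 0 to 1. A term for *mt-Co3* counts could not be fitted in primary tumors.

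Directions turned only in values that were not called. In liver against lung metastases, fits without single libraries ran from -0.00419 to 1.75 for *Apoa1* and from -0.39 to 0.59 for *Ttr*. Both were lowest without liver day 7 labelled off mouse 1, which leaves the paired-end library alone in its group. The others turned in lung metastases against primary tumors: *Apoa2* (-0.02 with a term for *mt-Co3* counts, -1.14 within libraries without them, -1.04 to 0.43 without single libraries), *Ahsg* (0.21 within libraries without *mt-Co3* counts, -0.69 to 0.26 without single libraries, of which 0.11 without lung day 7 labelled on mouse 2) and *Serpinc1* (-0.62 to 1.29 without single libraries). With the mouse number as a block, *Apoa2* and *Fgb* each lost 1 call (6 members against primary tumors and 2 against lung metastases), and no other call of a member changed. Over all genes, the called number ranged over the alternatives, other than leaving out each library in turn, from 0 to 3496 on liver day 7 (71 in the reported fit), 0 to 332 on liver day 14 (0), 0 to 549 and 16 to 908 in primary tumors (192 and 661), 0 to 100 and 3 to 197 in the lungs (0 and 4), 0 to 570 for label by day (21) and 0 to 72 for the day (0). Without liver day 7 labelled off mouse 1 it was 3373 on liver day 7, 1616 for label by day and 667 for the day. The causes were not tested. Of the 10 genes of like pattern, 8 remained with a pseudocount of 0.05. *Serpinc1*, *Fga* and *Fgb* held few counts outside the liver, which limits the precision of their values there. Ratios of mean levels without the highest primary tumor library, added after the values were seen, are given beside those of *Apoa1*, *Fgb* and *Fga*.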
